A study of Homo sapiens with 40 samples.

Results

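The solute carrier genes were taken from a catalogue of human transcript models as all genes whose identifier begins with SLC and a digit, leaving out identifiers that join names with a hyphen or a low line. The rule found 154 genes with 304 models among 9460 genes with 19972 models, so that solute carriers made up 1.522% of the catalogue. Of these, 33 genes with 76 models belonged to the mitochondrial SLC25 family, and 121 genes with 228 models belonged to the other SLC families. A hyphen left out 5 identifiers of antisense or divergent transcripts, such as SLC12A2-DT. The rule goes by name, and some members bear the prefix without being established carriers, among them SLC3A2 and SLC27A5, described below. A further 6 were named for other proteins or a pseudogene. SLC9A3R1 and SLC9A3R2 are scaffold proteins. SLC4A1AP and SLC7A6OS are named after a binding partner and a neighbour on the opposite strand, and SLC35E2A is a transcribed pseudogene in RefSeq. The remaining one, SLC66A1L, is named after its likeness to SLC66A1. All 6 fell among the other SLC genes.

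Solute carriers move small molecules across membranes, either along the gradient of the solute itself or coupled to the movement of an ion or of a second solute. Families are numbered by sequence resemblance, and most numbers correspond to a class of substrate, such as glucose for SLC2 and nucleotide sugars for SLC35. The SLC25 proteins are compact carriers built from a repeated module, and nearly all of them sit in the inner membrane of the mitochondrion. They exchange ADP for ATP and import phosphate for oxidative phosphorylation, pass citrate cycle acids and amino acids, and bring in iron, cofactors and glutathione.

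The catalogue comes from a study of RNA on ribosomes in H9, an established human embryonic stem cell line. Neural progenitor cells (NPC), made from H9 by dual-SMAD inhibition, and untreated embryonic stem cells (ESC), labelled as control, were each divided into cytosol, monosomes, light polyribosomes with 2 to 4 ribosomes and heavy polyribosomes with at least 5. The 40 libraries fell into 8 long-read groups with 2 libraries each and 8 short-read groups with 3 libraries each, and all of them derive from the H9 line. The catalogue gives the positions of exons and of coding regions without any level for a library, and the labels do not say which libraries entered it, so NPC and ESC, or the fractions, were not compared, and depth per library is unknown. With no replicate values, no difference below was tested. The comparisons describe 1 catalogue, the 95% Wilson intervals cover counting error only, and genes that lack a model may still be expressed.

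A model was found for 33 of the 48 SLC25 genes that RefSeq lists as protein-coding, or 68.75% (Wilson interval 54.67 to 80.05). Among the other protein-coding SLC genes it was 115 of 337, or 34.12% (29.27 to 39.34), and among protein-coding genes that are not SLC it was 8261 of 19671, or 42.0%. The SLC25 share thus lay above, and the share of the other SLC genes below, that of the remaining genes. The order was the same for genes with at least 2 models, at 33.33% of SLC25 genes, 14.54% of other SLC genes and 21.51% of genes that are not SLC. When 12 carriers listed in the catalogue under an older symbol were added, all of them outside SLC25, the share of other SLC genes came to 37.69%. Older symbols were not looked up for genes that are not SLC, so their 42.0% has no such addition. Size moved with the group, since the longest model in the catalogue was 5877 nt and the models with the longest coding region had a median of 1922 nt in SLC25 genes, 2421 nt in other SLC genes and 1891 nt in all genes; the part of length, or of expression level, in these shares was not tested.

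Among the other families, coverage differed by substrate group. Groups were assigned by family number, so a group can hold members with another substrate or none, such as SLC7A6OS among the amino acid carriers. Carriers of nucleotide sugars, which feed glycosylation in the Golgi apparatus and the endoplasmic reticulum, had a model for 18 of 31 protein-coding genes (58.06%), and carriers of zinc, copper, iron and magnesium for 18 of 32 (56.25%). Amino acid carriers stood at 25 of 62 (40.32%), close to the genes that are not SLC. Sugar carriers had 8 of 32 (25%), carriers of monocarboxylates and other organic acids, many of which serve liver, kidney and gut, had 10 of 49 (20.41%), and carriers of inorganic ions and protons had 13 of 67 (19.4%). The plot of coverage by substrate shows the SLC25 bar above every other group.

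**Figure D1:**
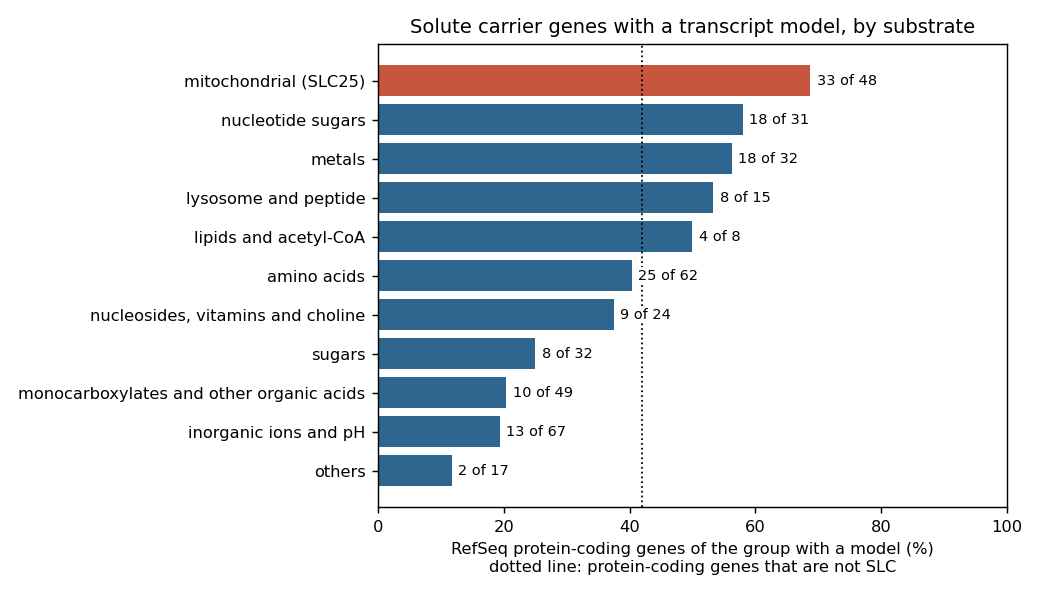
Share of RefSeq protein-coding solute carrier genes with at least 1 transcript model (x axis, percent) for the SLC25 family (red) and 10 substrate groups of the other families (blue); the number of genes is printed at each bar. SLC25 stood at 68.75%, and 4 of the other groups lay at or above 50%, against 42.0% of protein-coding genes that are not SLC (dotted line).

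Within SLC25, the citrate cycle acids were covered in full: SLC25A1 (citrate), SLC25A10 (dicarboxylates), SLC25A11 (oxoglutarate and malate) and SLC25A21 (oxodicarboxylates) all had models, and each had at least 2. Carriers of cofactors and nucleotides had models for 9 of 10 genes, of which 5 had at least 2. By contrast, the 4 genes with a model among the 7 carriers of aspartate, glutamate, ornithine and basic amino acids (SLC25A12, SLC25A13, SLC25A22 and SLC25A29) had 1 model each. The ADP/ATP carriers SLC25A4, SLC25A5 and SLC25A6 had models and SLC25A31 had none here. SLC25A14 was the only uncoupling-protein relative of 3 with a model, and it had the most models of the family.

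The upstream sequences of the ADP/ATP carriers, of the phosphate carrier SLC25A3, of SLC25A14 and of the glucose carriers SLC2A8 and SLC2A1 are given below, because the 5′ ends of the models could be set against the annotated starts of these genes. Each is the stretch of 100 bases before the RefSeq start, 5′ to 3′ on the strand of the gene, from RefSeq's GRCh38.p14 table. Capitals mark matches on either strand to common promoter elements, and matches that touch run together. The CCAAT box was searched by its own letters, the TATA box as TATAAA. For the GC box the letters were GGGCGG. A core bound by ETS factors was searched as CCGGAAG.
SLC25A4, chr4:185143166-185143265, plus strand: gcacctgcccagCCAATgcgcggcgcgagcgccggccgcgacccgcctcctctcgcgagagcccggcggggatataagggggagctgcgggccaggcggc
SLC25A5, chrX:119468344-119468443, plus strand: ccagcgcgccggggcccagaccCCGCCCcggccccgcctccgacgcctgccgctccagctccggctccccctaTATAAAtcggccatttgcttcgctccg
SLC25A6, chrX:1392114-1392213, minus strand: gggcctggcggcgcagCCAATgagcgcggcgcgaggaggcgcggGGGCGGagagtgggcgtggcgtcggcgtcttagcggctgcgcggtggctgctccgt
SLC25A3, chr12:98593586-98593685, plus strand: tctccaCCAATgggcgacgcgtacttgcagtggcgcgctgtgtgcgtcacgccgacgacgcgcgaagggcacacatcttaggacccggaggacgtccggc
SLC25A14, chrX:130339819-130339918, plus strand: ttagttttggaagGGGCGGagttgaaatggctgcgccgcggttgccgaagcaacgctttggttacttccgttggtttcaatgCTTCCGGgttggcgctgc
SLC2A8, chr9:127397069-127397168, plus strand: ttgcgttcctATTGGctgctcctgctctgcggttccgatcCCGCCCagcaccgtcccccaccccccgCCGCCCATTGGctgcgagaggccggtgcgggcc
SLC2A1, chr1:42958869-42958968, minus strand: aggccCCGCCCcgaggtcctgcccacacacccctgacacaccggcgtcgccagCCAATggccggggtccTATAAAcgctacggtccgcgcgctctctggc

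Model 5′ ends lay close to those starts. The single SLC25A4 and SLC2A1 models and the nearest SLC2A8 model began at the annotated base, the SLC25A5 model 1 nt after it, the nearest SLC25A3 model 4 nt after it, the nearest SLC25A14 model 8 nt before it, and the SLC25A6 model on chromosome X 22 nt before it. The SLC25A6 model on chromosome Y began at position 1392113, which on chromosome X is the base after the printed stretch. Over the 28 SLC25 genes with a RefSeq start, 26 (92.86%, Wilson interval 77.35 to 98.02) had a model beginning within 50 nt of it, against 68 of 94 other SLC genes (72.34%, 62.56 to 80.37) and 75.07% of all 7389 genes matched. The exceptions in SLC25 were SLC25A1, whose nearest model began 55 nt upstream, and SLC25A26, whose nearest model began 259 nt downstream. Within 10 nt the shares were 60.71% of SLC25 genes, 36.17% of other SLC genes and 49.18% of all genes.

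Letters of common promoter elements were counted on both strands of the 300-base windows from 250 bases before to 50 bases after each start. CCAAT was found in 14 of 28 SLC25 windows (50%), 34.04% of other SLC windows and 38.38% of all genes with a model, and in 35.7% of all 27305 promoters in the table. The ETS core was found in 7 SLC25 windows (25%), 12.77% of other SLC windows, 21.46% of all genes with a model and 10.67% of all promoters. GC boxes were found in 71.43% of SLC25 windows, 72.34% of other SLC windows, 71.16% of all genes with a model and 44.59% of all promoters. TATAAA was in 2 SLC25 windows (7.143%), 5.319% of other SLC windows, 5.062% of all genes with a model and 11.95% of all promoters. The palindromic NRF1 motif, named for a factor of mitochondrial gene control, was in 0 of 28 SLC25 windows, 2.128% of other SLC windows, 2.477% of all genes with a model and 1.359% of all promoters. SLC25A5 was printed above with a TATA box beginning 27 bases before the start, and SLC25A4 and SLC25A6 with a CCAAT box 88 and 84 bases before it. A match is a run of letters and not a shown binding site.

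SLC25 coding regions were short and of even length. The longest coding region of a gene held a median of 312 codons in SLC25 (quartiles 299 and 337.5, n = 31 genes with a coding model), against 479 codons in other SLC genes (359 and 540, n = 117) and 335 codons in all genes. Between 250 and 400 codons were found in 23 of 31 SLC25 genes (74.19%), 25 of 117 other SLC genes (21.37%) and 28.31% of all genes. The 3 ADP/ATP carriers held 299 codons each. Above the common range stood SLC25A12 and SLC25A13, which exchange aspartate for glutamate, with 679 and 676 codons, and SLC25A24 and SLC25A23, which exchange ATP-Mg for phosphate, with 478 and 469 codons. These 4 carriers are known to be controlled by calcium through an added regulatory domain, and each had a single model. SLC25A46, which lies in the outer membrane, followed with 419 codons.

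Some SLC25 genes had no long coding region. SLC25A48 had 159 codons in 5 exons, SLC25A29, a carrier of basic amino acids, 172 codons in 2 exons, and SLC25A37 (mitoferrin-1, an iron importer) at most 188 codons. The models of SLC25A42, a carrier of coenzyme A, and of SLC25A53 had no coding region. Among the other SLC genes the extremes were SLC12A4, the potassium-chloride cotransporter KCC1, with 1086 codons in 24 exons, SLC4A7, a sodium bicarbonate cotransporter, with 1023 codons, and SLC4A11 with 876. The shortest belonged to SLC50A1 (35 codons in 1 of its models), SLC16A8, a monocarboxylate carrier, with 79 codons, and SLC27A5, a bile acid-CoA ligase, with 96. The SLC4A7 coding region reached to within 2 nt of the end of its model.

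SLC25 genes had a mean of 2.303 ± 2.099 models (SD, n = 33 genes), other SLC genes 1.884 ± 1.534 (SD, n = 121) and all genes 2.111 ± 1.699 (SD, n = 9460). At least 2 models were held by 16 of 33 SLC25 genes (48.48%) and 51 of 121 other SLC genes (42.15%), against 50% of all genes. The SD of each group was nearly as large as its mean, and neither group stood far from the catalogue. A single model was the commonest case, with 17 SLC25 genes and 70 other SLC genes. The upper end was set by few genes: SLC25A14 had 10 models and SLC25A26 had 8, while SLC2A8 had 12 and SLC38A6 and SLC50A1 had 6 each. Without its gene with the most models, SLC25 had a mean of 2.062 and the other SLC genes 1.8.

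**Figure D2:**
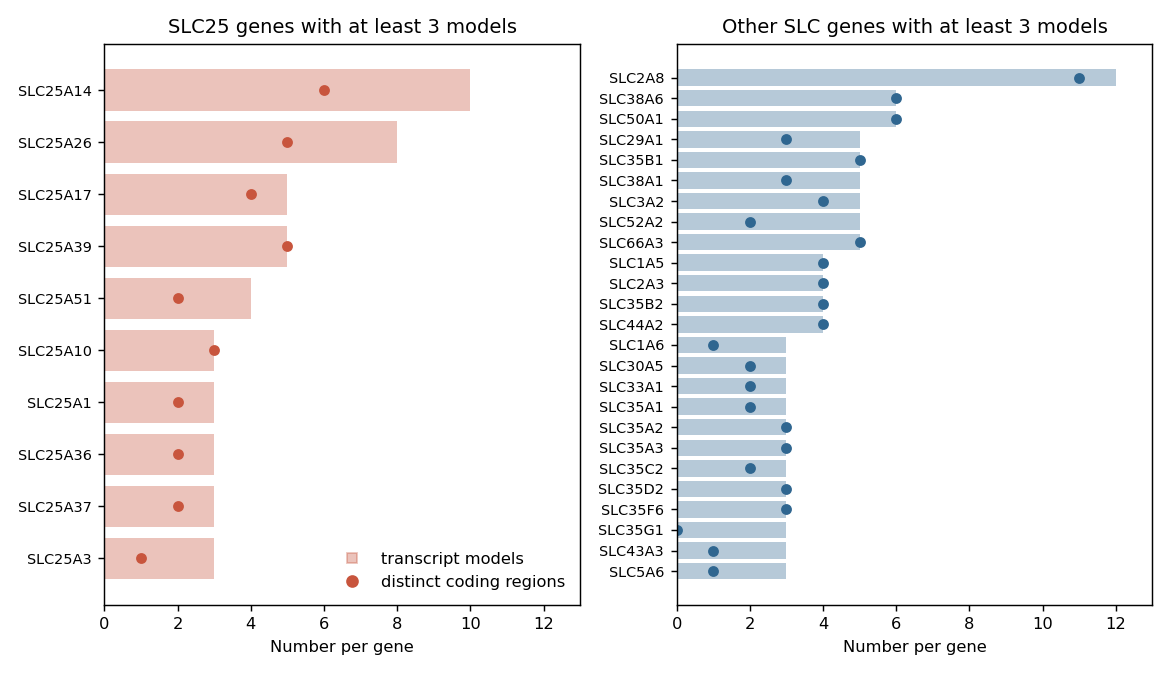
Transcript models (bars) and distinct coding regions (points) per gene (x axis, number) for SLC25 genes (left) and other SLC genes (right) with at least 3 models. SLC25A14 had 10 models with 6 coding regions and SLC2A8 had 12 models with 11, whereas SLC25A3, SLC1A6, SLC43A3 and SLC5A6 had 3 models around 1 coding region each and SLC35G1 had 3 models with none.

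SLC25A14, an uncoupling-protein relative first described in brain, lies at chrX:130339900-130373356 on the plus strand. Of its 10 models 9 were coding, with 6 coding regions of 326, 322, 291, 225, 182 and 147 codons that all ended at the same stop. The variation lay at the 5′ side and in the middle, where 6 cassette exons were found, that is, exons held by some models and joined across in others. The 94-nt exon at chrX:130345182-130345275 was in 6 models and joined across in 4, and the 86-nt exon at chrX:130350646-130350731 was in 7 models and skipped in 3, which had 147 codons or no coding region. Only the 93-nt exon at chrX:130359047-130359139, which keeps the reading frame, separated model 2 with 322 codons from model 3 with 291 inside the coding region, and 9 models skipped it. The first exon of model 4 ran 377 nt farther than that of models 2, 3, 7 and 9. The map of its exons shows the right-hand exons unvarying except in the model without a coding region, whose exon ran 92 nt farther.

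**Figure D3:**
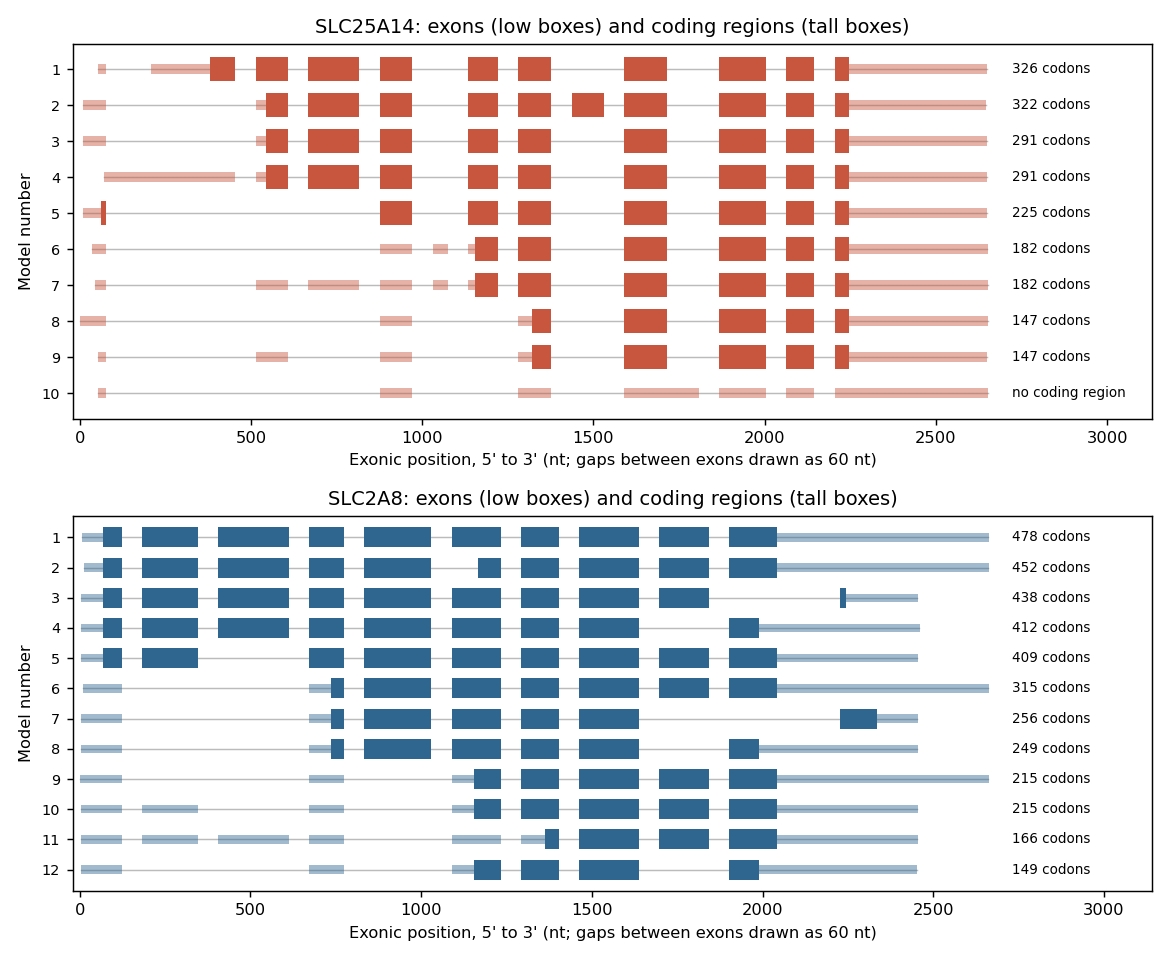
Exons (low boxes) and coding regions (tall boxes) of the 10 SLC25A14 models (top) and the 12 SLC2A8 models (bottom), ordered by coding length, along the exonic position in nt with each gap between exons drawn at a fixed width of 60 nt. All 9 coding SLC25A14 models shared a stop while the start differed, lying farthest to the right in the models of 147 codons; SLC2A8 models differed at the start, in the middle and at the stop.

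Carriers of cofactors and nucleotides came next. SLC25A26, which imports S-adenosylmethionine, the methyl donor, had 8 models at chr3:66221001-66378920 on the plus strand, of which 5 were coding with 275, 260, 187, 186 and 169 codons. A 45-nt exon inside the coding region (chr3:66346364-66346408) was in 5 models and skipped in 3, and its loss alone separated the 275-codon from the 260-codon region. Exons of 157, 110 and 70 nt, none of them divisible by 3, were held by 2, 7 and 6 models. The 186-codon model lacked the 157-nt and 110-nt exons together and kept the start and stop of the 275-codon region. The 3 models without a coding region each either skipped the 70-nt exon or held an 85-nt exon found in no other model. SLC25A17, a peroxisomal member that carries coenzyme A, FAD and NAD, had 5 models with 308, 259, 235, 125 and 125 codons and cassette exons of 152, 67 and 61 nt.

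SLC25A51, which imports NAD, had 4 models from the crossing of a 27-nt exon in the 5′ untranslated region (chr9:37903531-37903557, 2 models with and 2 without) with 2 last exons. The nearer last exon carried a coding region of 298 codons, and the farther one only 103 codons, which lay wholly in that exon and shared neither start nor stop with the 298. SLC25A36, a pyrimidine nucleotide carrier, had coding regions of 312 and 133 codons, the shorter ending in a 37-nt exon (chr3:140967000-140967036) found in that model alone. The stop of the 133-codon region lay 380 nt upstream of the last junction, which made it the only SLC25 candidate for nonsense-mediated decay, the pathway that removes mRNA with a stop more than about 50 nt ahead of the last junction.

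Citrate cycle carriers varied inside compact genes. SLC25A1 had coding regions of 312, 209 and 209 codons, the shorter ones beginning downstream behind another first exon or a splice acceptor moved by 43 nt. SLC25A10 had 288, 284 and 242 codons: a 12-nt shift of an acceptor separated 288 from 284, and the 242-codon model held an added 245-nt exon before its start. SLC25A11 had 315 and 264 codons, which differed by a 153-nt exon divisible by 3 (chr17:4939060-4939212). SLC25A21 had 300 codons, and 205 codons in a second model that ended in an upstream last exon, the only early-ending model in SLC25.

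SLC25A39, which imports glutathione, had 5 models with 5 coding regions at chr17:44319628-44324836, minus strand. The 360, 358, 352 and 337 codons of 4 models shared start and stop and differed by acceptor shifts of 18 and 24 nt and a 45-nt exon (chr17:44322808-44322852), all divisible by 3. The fifth model kept a 202-nt intron and had 176 codons from a later start. SLC25A43 had 342 and 157 codons, separated by a 242-nt exon. SLC25A37 had 188 codons in 2 models and 156 in another that started upstream and ended in an exon running through an intron of the first pair. SLC25A3, the phosphate carrier that supplies ATP synthase, had 3 models with 1 coding region of 362 codons, and its models differed before the start codon by another first exon and a 4-nt shift of an acceptor. SLC25A6 had 2 models of 299 codons, 1 on chromosome X and 1 on chromosome Y, with coding regions at the same positions of the shared pseudoautosomal region, so which copy a model came from is uncertain.

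Among sugar carriers, SLC2A8 (GLUT8, an intracellular glucose transporter, chr9:127397164-127407870, plus strand) had 12 coding models and 11 coding regions from 478 to 149 codons. Cassette exons of 163, 197 and 146 nt were skipped in 5, 4 and 4 models, and a 207-nt cassette exon was held by 5 models. Models 5 and 10 kept the 163-nt exon without it, and models 6, 7, 8, 9 and 12 lacked both. Of these exons only the 207-nt exon was divisible by 3. An acceptor shift of 78 nt separated 452 from 478 codons, and an acceptor shift of 324 nt changed the last exon in 2 models. SLC2A3 (GLUT3, the neuronal glucose transporter) had 497, 293, 234 and 173 codons from a single start, each ending in its own last exon. SLC2A1 (GLUT1) had a single model of 493 codons. SLC50A1, the human relative of plant SWEET sugar carriers, had 6 coding regions of 222, 190, 168, 167, 100 and 35 codons, set apart by skipping 124-nt and 162-nt exons, each in 3 models, and by differing starts.

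For amino acids, SLC38A6, a member of the SLC38 family without a settled substrate, had 6 coding regions of 460, 457, 439, 428, 345 and 162 codons, 3 last exons and a 54-nt cassette exon divisible by 3. SLC38A1 (SNAT1, a glutamine carrier) had 488 codons in 3 models with different 5′ untranslated regions and 461 and 404 codons in 2 more. SLC3A2, the heavy chain CD98 that brings light chains such as SLC7A5 to the plasma membrane, had 631, 600, 530, 176 and 176 codons behind 3 first exons, and the 93-nt exon at chr11:62870745-62870837 separated 631 from 600. SLC1A5 (ASCT2, a neutral amino acid exchanger) had 542, 366, 340 and 314 codons behind 3 first exons with 1 shared stop. In SLC1A6 (EAAT4, a glutamate transporter), 3 models differed before a shared coding region of 313 codons.

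The nucleoside carrier SLC29A1 (ENT1) had 482 codons behind an upstream first exon and 457, 457, 457 and 281 behind a downstream one. SLC44A2, a choline transporter-like protein, combined 2 first exons with an acceptor shift of 382 nt in the last exon into 4 coding regions of 712, 710, 707 and 705 codons. SLC52A2, a riboflavin transporter, had 5 models with 446 or 282 codons. SLC35B1, which supplies ATP to the endoplasmic reticulum, had 326, 323, 292, 199 and 169 codons, and SLC35B2, the carrier of the sulfate donor PAPS, had 433, 384, 328 and 276, all with a shared stop. SLC66A3 had 203, 189, 124, 121 and 103 codons from 1 start, with 121-nt and 42-nt exons skipped singly or together in the models of 189, 124 and 121 codons. The 103-codon model held both exons, and its stop lay upstream of them. SLC30A5, a zinc transporter of the secretory pathway, had 766 and 119 codons and 1 more model that skipped a 123-nt exon and had no coding region.

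Many well-known carriers had a single model with a coding region of typical size. Among amino acid carriers these were SLC7A5 (LAT1, the light chain partner of SLC3A2) with 508 codons, SLC7A11 (the cystine-glutamate exchanger xCT) with 502 and SLC38A2 (SNAT2) with 502. The lactate exporter SLC16A3 (MCT4) had 1 model of 466 codons, whereas SLC16A1 (MCT1) had 501 codons in 1 model and a second model of 493 nt without a coding region that ended in another last exon. Metal carriers were mostly single, with 5 of 18 genes holding at least 2 models, and included the copper importer SLC31A1 with 191 codons, the zinc exporter SLC30A1 with 508 and the zinc and manganese importer SLC39A8 with 461. In the families of inorganic ion carriers 3 of 15 genes held at least 2 models, among them the scaffold SLC9A3R2 and SLC26A6, an anion exchanger whose 760 and 759 codons differed by a 3-nt acceptor shift. At least 2 models were held by 7 of 9 carriers of nucleosides, vitamins and choline (77.78%) and by 11 of 20 members of SLC35 (55%), SLC35 being near the 50% of all genes.

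Coding models were compared within a chromosome, so the pair of SLC25A6 models on X and Y is left out of these comparisons, and all genes were treated alike. Genes with at least 2 coding models on a chromosome usually had more than 1 coding region: 12 of 14 in SLC25 (85.71%) and 40 of 48 among other SLC genes (83.33%), against 84.4% of all genes. The kind of difference from the longest coding region of the gene was then sorted. Of 36 further coding models in SLC25, 18 (50%) had another start and the same stop, 8 (22.22%) kept both ends and differed by a multiple of 3, 5 (13.89%) had the same coding region, 3 (8.333%) shared neither end and 2 (5.556%, Wilson interval 1.537 to 18.14) kept the start with another stop. Of 102 in other SLC genes, 34 (33.33%) had another start and the same stop, 13 (12.75%) kept both ends, 18 (17.65%) had the same coding region, 10 (9.804%) shared neither end and 27 (26.47%, 18.88 to 35.77) kept the start with another stop. In genes that are not SLC, 29.82% of 8521 had another start with the same stop and 25.36% the reverse.

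In SLC25, the low share with the same start and another stop did not rest on its gene with the most models. The high share with another start and the same stop did rest on it. Models that shared neither end also had another stop and are not counted here. They were 3 of 36 (8.333%) in SLC25 and 10 of 102 (9.804%) in other SLC genes. Without SLC25A14, 2 of 28 further models (7.143%) kept the start with another stop, and 10 of 28 (35.71%) had another start with the same stop, near the 32.97% of other SLC genes without SLC2A8. The models of a gene share exons and are not independent of each other, so the intervals are too narrow.

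**Figure D4:**
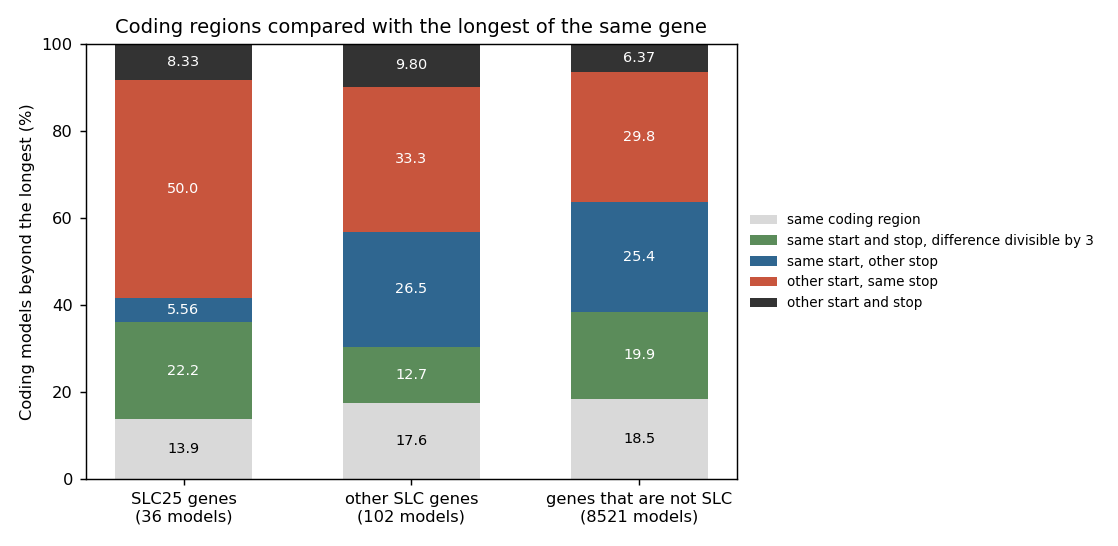
Coding models beyond the longest of their gene, by how the coding region differs from the longest (stacked shares, percent of models), for SLC25 genes, other SLC genes and genes that are not SLC. The part with the same start and another stop was 5.556% in SLC25 genes, 26.47% in other SLC genes and 25.36% in genes that are not SLC.

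Counted by gene, a later start with the same stop occurred in 7 of 14 SLC25 genes with at least 2 coding models on a chromosome (SLC25A1, SLC25A10, SLC25A14, SLC25A17, SLC25A26, SLC25A39 and SLC25A43) and in 15 of 48 other SLC genes (31.25%), against 37.1% of all genes. Early-ending coding models, which share the start but stop in a last exon upstream of that of the longest, were found in 1 of 14 SLC25 genes (7.143%, Wilson interval 1.272 to 31.47) and 10 of 48 other SLC genes (20.83%, 11.73 to 34.26), against 17.4% of all genes. With 14 genes the SLC25 interval covers both other shares. The strongest truncations outside SLC25 were in SLC30A5, where 119 of 766 codons remained (15.54%), SLC12A4, with 184 of 1086 (16.94%), and SLC6A6, the taurine transporter, with 207 of 621 (33.33%). At the mild end, SLC38A6 kept 457 of 460 codons.

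**Figure D5:**
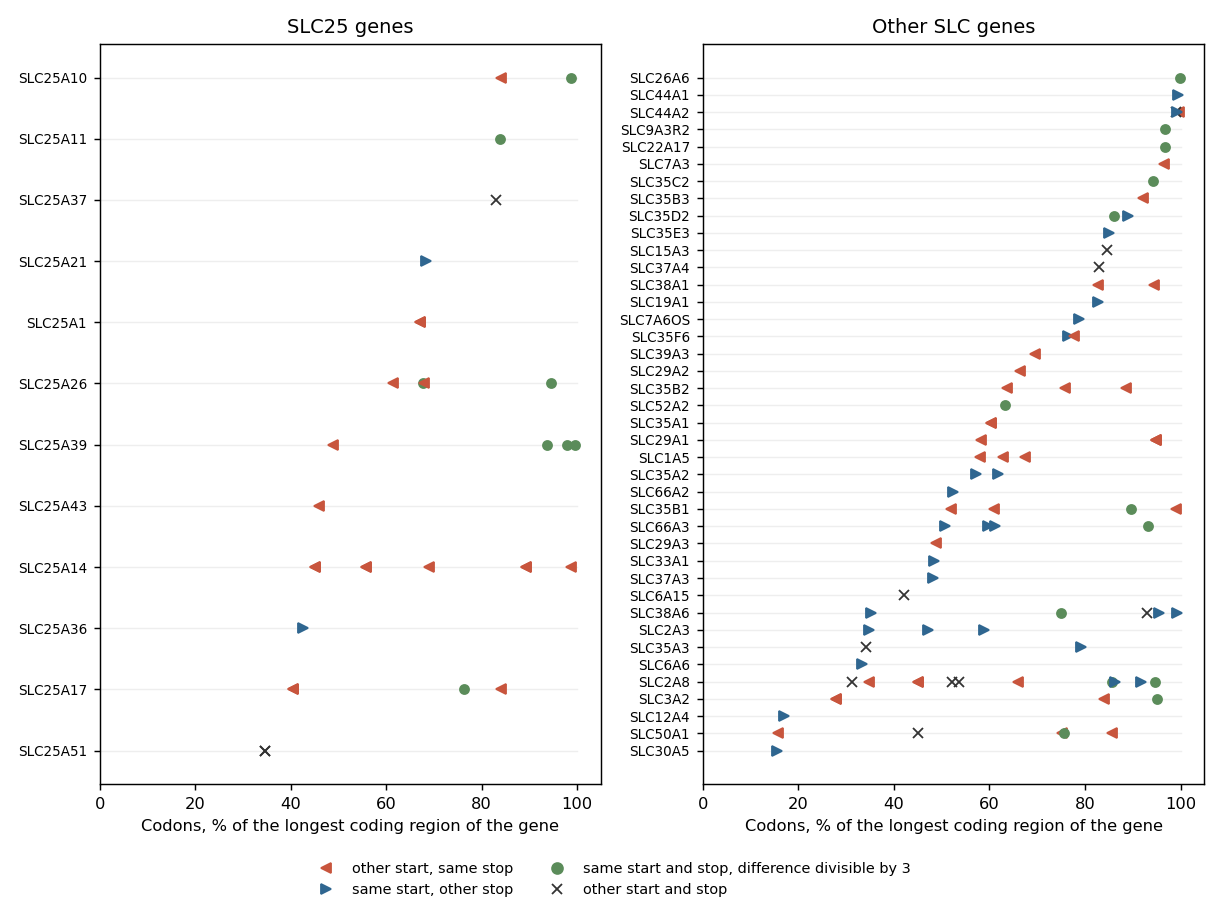
Length of each further coding region as a percentage of the longest of its gene (x axis) for SLC25 genes (left) and other SLC genes (right) with at least 2 coding regions, with a symbol for the kind of difference. The shortest region was a median of 55.17% of the longest in the 12 SLC25 genes and 61.79% in the 40 other SLC genes, and SLC30A5 at 15.54% was the lowest point.

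Decay candidates were few in both groups. They were found in 1 of 31 SLC25 genes with a coding model (3.226%, SLC25A36) and in 3 of 117 other SLC genes (2.564%), against 5.01% of all genes. SLC66A3 had 103 codons with a stop 204 nt ahead of the last junction. SLC37A4, the carrier of glucose 6-phosphate into the endoplasmic reticulum, had 190 codons with a stop 468 nt ahead of it, where its longer model had 229. SLC15A3, a lysosomal carrier of peptides and histidine, had 457 codons beside 540, with a stop 51 nt ahead of the junction, just inside the limit of 50 nt.

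Of 21 cassette exons in 10 SLC25 genes, 14 lay inside coding regions and 4 of these were divisible by 3 (28.57%, Wilson interval 11.72 to 54.65). In other SLC genes there were 33 in 24 genes, with 7 of 23 coding exons divisible by 3 (30.43%, 15.6 to 50.87), and in all genes 44.12% of 2133 coding cassette exons were. Both SLC intervals covered the share in all genes. Each exon was judged by itself in every group, and a joint skip was not counted as 1 event. A model with a joint skip could still enter as skipping 1 of the exons, beside a model that lacked only the other. SLC25A17 model 3 lacked the 152-nt and 67-nt exons together, and SLC25A26 model 4 the 157-nt and 110-nt exons. The 67-nt and 110-nt exons were counted as cassette exons, not divisible by 3, only through these models. Both models kept the start and stop of the longest coding region. The shortest cassette exon of SLC25 was the 27-nt exon of SLC25A51, and no other SLC gene had one of 30 nt or less. Exons that excluded each other between the same neighbours were found in 66 genes of the catalogue (1.395% of genes with at least 2 models) and in no SLC gene, although SLC25A3 and SLC39A14, a zinc and manganese transporter, are known for such pairs. SLC39A14 and SLC11A2, an iron transporter known for alternative ends, had 1 model each, and SLC12A2 and SLC8A1 had no model here.

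Behind a shared stop, 3′ untranslated regions differed by at least 100 nt in 2 of 14 SLC25 genes (14.29%), 5 of 48 other SLC genes (10.42%) and 15.27% of all genes with at least 2 coding models on a chromosome. SLC25A6, not among the 14, had 355 nt in its chromosome X model and 460 nt in its chromosome Y model. The widest gap was in SLC48A1, a heme transporter, at 542 against 1389 nt with 147 codons in both models. SLC25A26 had 273 and 1113 nt, SLC25A17 747 and 1198 nt, SLC33A1, the acetyl-CoA carrier, 326 and 853 nt, and SLC35B1 131 and 515 nt. Several 5′ untranslated regions before a single coding region were found in 7 of 14 SLC25 genes (50%, Wilson interval 26.8 to 73.2), 14 of 48 other SLC genes (29.17%, 18.24 to 43.18) and 31.7% of all genes. Alternative last exons were held by 5 of 16 SLC25 genes with at least 2 models (31.25%), 17 of 51 other SLC genes (33.33%) and 26.95% of all genes. Among the 5 was SLC25A35, whose 2 models did not overlap at all, so that each had its own first and last exon. Retained introns were held by 3 of 16 SLC25 genes (18.75%), 4 of 51 other SLC genes (7.843%) and 17.33% of all genes.

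The labelled cell types had their defining genes in the catalogue: models were present for 5 of 5 neural progenitor markers and 4 of 5 embryonic stem cell markers, for 0 of 4 mesoderm and endoderm markers, and for both fibroblast markers, COL1A1 and THY1. As the models carry no level, the share of each cell type behind a given solute carrier model was not tested.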

How the data were processed

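Per the labels, polyadenylated RNA of NPC and ESC fractions was sequenced as long and short reads, with 15 PCR cycles (17 for monosomes). STAR 2.7.8a and Salmon 1.9.0 appear in the submitters' processing notes, with no role. The deposited catalogue gives positions, in nt counted from 1, of transcripts, exons and coding regions. The tools that made it and its build are not stated. However, the signed offset of the nearest model start from the start in RefSeq's GRCh38.p14 was summarized by its median. It was 0.5 nt (SLC25 genes), 2.5 nt (other SLC genes) and 0 nt (all genes), where offsets to either side cancel. A start within 50 nt was found for 75.07% of all genes matched and within 10 nt for 49.18%, so coordinates were read as GRCh38. Depth is unknown, and which mRNAs gained a model may depend on their length and abundance.

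Introns were the gaps between exons. Cassette exons, alternative splice sites, retained introns and first and last exons were called within each gene, chromosome and strand with Python 3.11.15, and the calls were checked on 17 made-up cases, all recovered. Lengths in codons take in the final codon of a coding region as deposited. Coding regions of at least 2 models per gene were compared with the longest. A decay candidate had over 50 nt between its stop and the last junction. Of 154 solute carrier genes, 149 matched a RefSeq symbol and 5 a synonym, and 295 of 296 models overlapped the RefSeq gene. Models are numbered within a gene by coding length. The members, substrate groups and lists were chosen with earlier results of these data known. Genes were named by rank (most models, decay candidates, coding cassette exons, longest and shortest coding regions, largest untranslated region differences) and, for others, as members of a substrate group or examples chosen after their values were seen. No test between libraries was possible.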

Additional observations from a re-analysis of the deposited data

How the results depend on the processing

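No test was made, and each alternative changed 1 choice. With at least 2 models required, presence was 33.33% of SLC25 genes and 14.54% of other SLC genes. Where both inclusion and skipping had to be seen in 2 or more models, 8 cassette exons were left in SLC25 genes and 9 in other SLC genes, so most rest on 1 model. A stop anywhere before the last junction gave 10 decay candidate models in other SLC genes, against 3 with the limit of 50 nt and 2 with a limit of 55 nt. Starts within 10 nt were found in 60.71% of SLC25 genes and 36.17% of other SLC genes. The remaining alternatives, some added after the data were seen, moved shares and means by less than their interval or SD and counts by less than 1.5 times. Presence among genes of 250 to 400 residues was not run, as no protein table was at hand.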
